A study of Mus musculus with 30 samples.

Results

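Messenger RNA was compared between 3 macrophage samples given desmosterol at 10 uM and 3 given vehicle, which are 6 of the 30 samples of a series on ligands of the liver X receptors (LXR). These 6 were chosen by their labels, and all 11544 genes with enough counts, of 24063 in the table, are described. The cells were primary mouse macrophages, taken from the peritoneum after a thioglycollate injection and grown in RPMI. Both groups had a 24 h pretreatment in which the serum (10%) was poor in lipid, mevastatin (10 uM) blocked the mevalonate pathway and mevalonate itself was supplied at 50 uM. Desmosterol or vehicle then followed for 18 to 20 h. The vehicle label names both DMSO and ethanol, and no label says which of them carried the desmosterol. No label says that replicates came from separate animals or cultures, so each p-value rests on sample-to-sample spread that may be technical in origin.

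Desmosterol is the last intermediate on a branch of cholesterol synthesis and differs from cholesterol by a double bond in the side chain. It binds LXR, the nuclear receptor that switches on genes of sterol export, and it holds SREBP-2, the factor that switches on genes of sterol synthesis, in the endoplasmic reticulum (ER). Macrophages take up lipid from dead cells and lipoproteins, and their inflammatory, ER stress and lysosomal genes are known to respond to sterols.

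The 6 libraries held 9748589 to 15685961 counts over exons. Abca1, an LXR target, and Insig1, an SREBP target, were read as a check of the labels. Abca1, the sterol exporter, stood at 139.9, 161 and 159 CPM (counts scaled by library size) in vehicle and at 1234, 1230.4 and 1199.6 with desmosterol. Insig1, which retains SREBP in the ER, stood at 164, 159.9 and 158 CPM and then at 40.4, 42.2 and 45.8. No library overlapped between the groups for either gene. Desmosterol replicate 2 stood apart from its group, with a chi-square per degree of freedom over genes of 7.69 and 7.77 against the others, while desmosterol replicates 1 and 3 gave 2.13 and the vehicle pairs 2.34 to 3.83. The summed level of 10 macrophage markers was 16680 to 16770 CPM in vehicle and 16070 to 18860 with desmosterol, and none of the 10 was at 0. Most of that sum is Lyz2 (10980, 10430 and 10790 CPM, then 10130, 12390 and 10520) and Cd68, so it says little of the others. Of 9 tested macrophage markers 3 were called higher and 2 lower. Of 11 marker lists, that of neutrophils alone did not overlap between the groups (101.7 to 105 CPM in vehicle, 90.24 to 94.64 with desmosterol). That sum is mostly 1 gene, Csf3r (92.4, 96.2 and 93.3 CPM, then 84.2, 81.7 and 80.6), while S100a8 read 9.6, 7.87 and 7.51 and then 9.95, 12.2 and 8.8, and neither was called (adjusted p = 0.0725 and 0.243). Its defining genes S100a9, Camp and Retnlg were at 0 in all 6 libraries. In such bulk samples, fewer cells of a type and less RNA per cell cannot be told apart.

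Across the genome, 569 genes rose and 528 fell at a Benjamini-Hochberg adjusted p under 0.05 in edgeR's quasi-likelihood test, which is 4.93% and 4.57% of genes tested and 9.5% in both directions. Only 52 of these 1097 genes were on the lists of LXR targets, SREBP-1c and fatty acid synthesis, cholesterol synthesis and other SREBP-2 targets, so 1045 lay outside them. Most changes were small: 829 of the 1097 were under 0.5 on the log2 scale, with a median size of 0.30 among rising and 0.33 among falling genes. Past 2-fold there were 41 rising and 37 falling genes, and the 4 lists held 5 of the first and 26 of the second. By these lists, the large rises lay mainly outside and the large falls mainly inside. Tested members numbered 18 for LXR targets, 15 for SREBP-1c and fatty acid synthesis, 20 for cholesterol synthesis and 10 for other SREBP-2 targets. The make-up of the lists thus enters this split. The 4 lists hold 63 tested genes, and a gene outside them may still be a target of LXR or SREBP. The libraries of the 2 groups did not overlap for 2901 genes, 25.1% of those tested, with desmosterol above in 12.4% and below in 12.7%.

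Calls rested in part on single libraries. With each of the 6 left out in turn, 514 genes (46.9% of those called), 281 higher and 233 lower, were called every time in the same direction. Such genes are said here to keep their call. Libraries were also thinned to the shallowest of the 18 macrophage libraries, which held 3862655 counts and is not among these 6. Some of the genes described here that keep their call with libraries left out were then not called: Aldh1l1, Bbc3, H2-Q4, Hadha, Lipe, Lipg, Manf, Map1lc3a, Mefv, Per2, Sept5, Slc7a7, Stab2, Tlr1 and Tnip1, at adjusted p from 0.0502 for Mefv to 0.666 for Lipe. Without vehicle replicate 2, the deepest library, 353 genes rose and 312 fell. Without desmosterol replicate 2 the counts were 463 and 419.

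**Figure D1:**
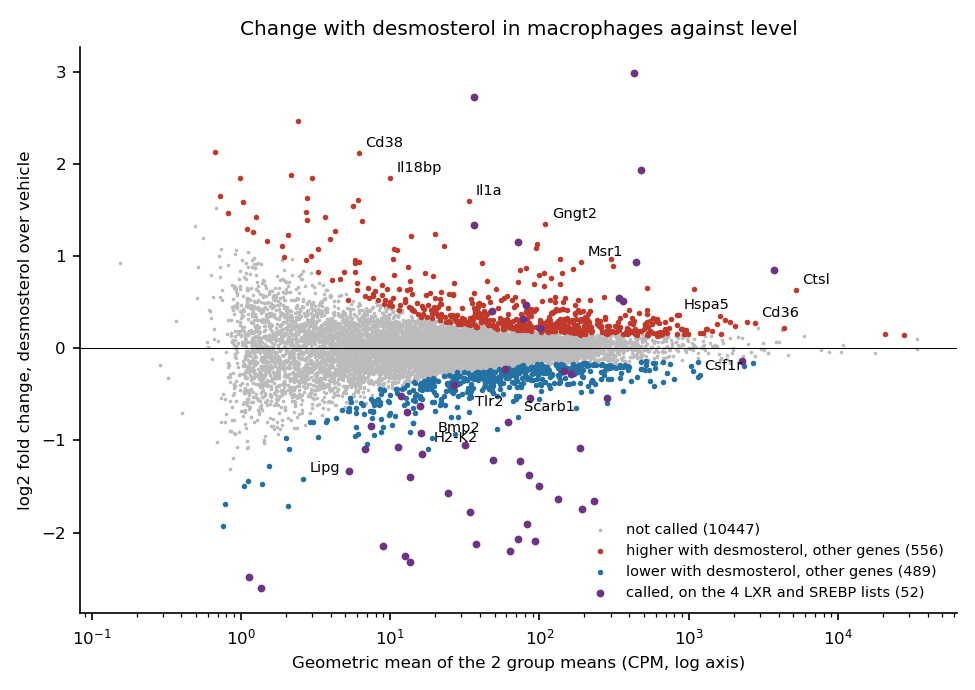
Each point is 1 of 11544 genes, by the geometric mean of its 2 group means (CPM, log axis) and its log2 fold change with desmosterol. Red and blue points are called genes outside the 4 sterol lists (556 higher and 489 lower), purple points the 52 called genes on them. Purple points make up most of the far low side, while red points reach past 2 on the log2 scale at low levels.

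The 15 largest rises outside the sterol lists included Cd38, Il18bp, Il1a and Gngt2. Separate groups were a condition for naming a gene among the largest rises, the largest falls or the most abundant genes. For these genes separation is thus no result. Cd38, a surface enzyme that breaks down NAD, lies on mm10 at chromosome 5, 43868827 to 43912374. It stood at 2.86, 3.37 and 2.53 CPM in vehicle and at 11.9, 13.5 and 13.4 with desmosterol, a rise of 2.12 ± 0.16 on the log2 scale (± SE, adjusted p = 1.35e-13). Il18bp, the secreted antagonist of interleukin-18, lies at chromosome 7, 102015077 to 102018155. Its libraries read 5.08, 5.44 and 5.32 CPM in vehicle and 17.8, 20.2 and 19.2 with desmosterol (1.85 ± 0.11, adjusted p = 1.7e-16). The lowest treated library was above 3 times the highest vehicle library for both genes. Il1a, the alarmin interleukin-1 alpha (chromosome 2, 129299610 to 129309972), went from 21.7, 18.1 and 18.4 to 60.8, 56.5 and 58.2 CPM (1.60 ± 0.09, adjusted p = 1.86e-18), again with a wide gap between groups.

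Others of the 15 were in genes with few reads. Vipr1, a receptor for vasoactive intestinal peptide, read 1.75, 0.937 and 0.76 CPM in vehicle and 4.25, 4.9 and 3.14 with desmosterol (1.88 ± 0.26). Lbp, which carries bacterial lipopolysaccharide to its receptor, read 1.29, 1.56 and 1.86 in vehicle and 6.86, 4.74 and 5.67 with desmosterol (1.84 ± 0.24). Hbegf, a ligand of the epidermal growth factor receptor, read 2.68, 2.06 and 2.03 in vehicle and 5.41, 6.66 and 5.97 with desmosterol (1.43 ± 0.21). Vehicle levels of all 3 genes were under 3 CPM, and their groups were separate, as the naming rule required. Ksr2, a scaffold of the Ras to MAPK path, rose by 1.61 ± 0.17, P2ry13, an ADP receptor, by 1.48 ± 0.31, the lipase gene Lipn by 1.39 ± 0.19, and Mefv, which encodes the inflammasome sensor pyrin, by 1.27 ± 0.21. Stab2, a scavenger receptor for hyaluronan that also marks sinusoidal endothelium, rose by 1.39 ± 0.24. The summed endothelial markers overlapped, at 139 to 168.6 CPM in vehicle and 142.3 to 168.8 with desmosterol. Most of that sum is Vwf, at 110.7, 122.7 and 140.9 CPM in vehicle and 114.9, 140.3 and 108.5 with desmosterol. The part of endothelial cells in the rise of Stab2 was not tested. AI427809 rose by 1.64 ± 0.26. Bach2os rose by 2.47 ± 0.23, but it is antisense to Bach2 and the table headers state no strand option, so its reads and those of the opposite strand cannot be told apart. Nuf2, a kinetochore gene, gave 1.43 ± 0.37 at 0.923, 0.687 and 0.675 CPM in vehicle and 2.51, 1.68 and 2.02 with desmosterol, and its call was lost on leaving out a library (adjusted p = 0.0542 without desmosterol replicate 1 and 0.0599 without vehicle replicate 2, in a range of 0.00811 to 0.0599 over all settings).

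Gngt2, a G protein gamma subunit (chromosome 11, 95843245 to 95845731), was more abundant than most of the 15 largest rises. It read 67.5, 68.5 and 70.0 CPM in vehicle and 176, 177 and 172 with desmosterol, a 2.55-fold rise (1.35 ± 0.06, adjusted p = 4.42e-22). All treated libraries lay far above all vehicle libraries, with little spread within each group.

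**Figure D2:**
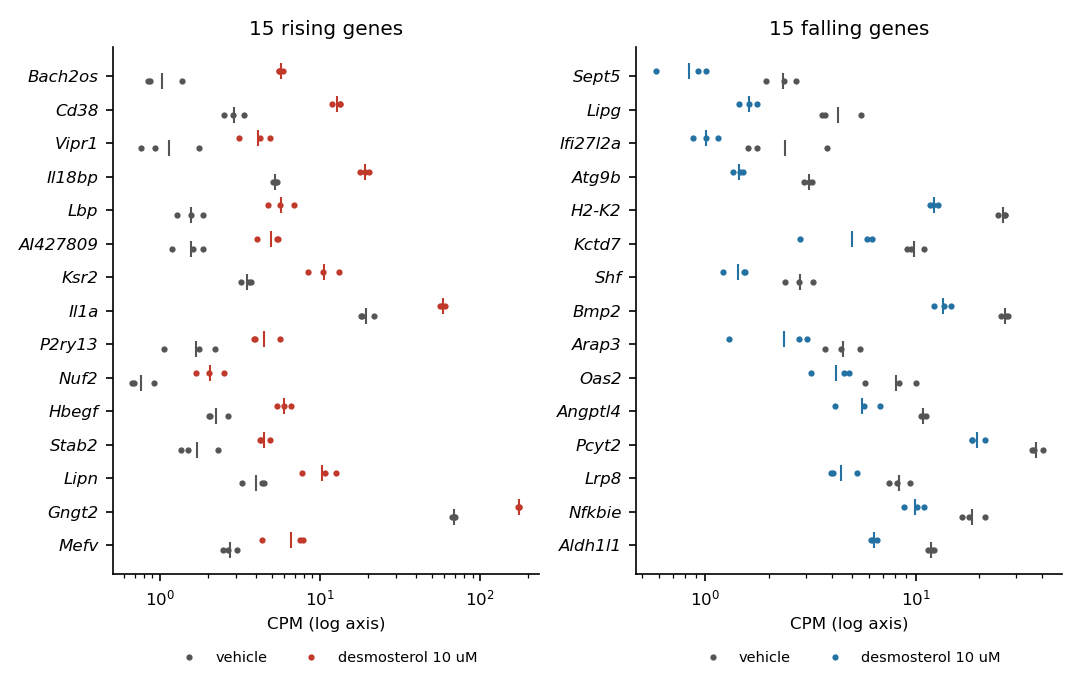
CPM on a log axis of the 15 largest rises and 15 largest falls outside the sterol lists, with 1 point per library (3 vehicle, grey, and 3 desmosterol, coloured) and a bar at each group mean. The groups do not overlap for any of the 30, which the rule for choosing them required, and most lie under 10 CPM.

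The largest falls outside the sterol lists were smaller than the largest rises. Lipg, endothelial lipase, read 3.6, 5.5 and 3.71 CPM in vehicle and 1.45, 1.76 and 1.62 with desmosterol, a fall of 1.41 ± 0.28 (adjusted p = 0.000392). Bmp2, a secreted growth factor, read 27.6, 27.1 and 25.4 in vehicle and 13.7, 14.7 and 12.2 with desmosterol, a fall of 0.97 ± 0.12 (adjusted p = 3.28e-08). Pcyt2, the rate-setting enzyme of phosphatidylethanolamine synthesis, read 35.7, 36.7 and 40.3 in vehicle and 18.6, 21.5 and 18.5 with desmosterol, a fall of 0.93 ± 0.10 (adjusted p = 1.45e-09). All treated libraries of these 3 genes were below all vehicle libraries. Angptl4, an inhibitor of lipoprotein lipase, fell by 0.95 ± 0.18, Lrp8, a receptor for apolipoprotein E and reelin, by 0.93 ± 0.18, and Aldh1l1, an enzyme of folate metabolism, by 0.91 ± 0.15. Sept5, a septin, fell by 1.47 ± 0.35 from 1.94, 2.69 and 2.36 CPM in vehicle to 0.58, 0.918 and 1.01. Kctd7, a BTB-domain gene, fell by 1.04 ± 0.19 from 9.5, 11 and 9.11 CPM in vehicle to 6.18, 2.83 and 5.87, lowest in desmosterol replicate 2. H2-K2, a class I gene of the major histocompatibility complex, fell by 1.09 ± 0.11 from 26.7, 24.6 and 26.8 CPM to 11.7, 12.2 and 12.7, and it shares sequence with its class I relatives, so the split of reads between them is uncertain.

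A further 5 of the 15 falls did not keep their call. Oas2, which makes the second messenger of an antiviral RNA-decay path, gave −0.95 and lost the call at adjusted p = 0.0563 without vehicle replicate 2, in a range of 8.88e-05 to 0.105 over all settings. The interferon-induced gene Ifi27l2a gave −1.27 and read 1.75, 3.81 and 1.6 CPM in vehicle, with replicate 2 highest, and 0.869, 1.15 and 1.01 with desmosterol. It lost the call at adjusted p = 0.067 without desmosterol replicate 1 and 0.394 without vehicle replicate 2, in a range of 0.0088 to 0.394 over all settings. Atg9b, of autophagy, gave −1.09 (adjusted p = 0.0535 without desmosterol replicate 1, in a range of 0.00386 to 0.0603 over all settings), the adaptor gene Shf −0.98 (adjusted p = 0.0544 without desmosterol replicate 2, 0.0849 without desmosterol replicate 3, 0.151 without vehicle replicate 2 and 0.0551 without vehicle replicate 3, in a range of 0.0217 to 0.151 over all settings) and Arap3, which turns off small GTPases, −0.96 (adjusted p = 0.225 without desmosterol replicate 2, 0.12 without vehicle replicate 1 and 0.0756 without vehicle replicate 2, in a range of 0.00724 to 0.361 over all settings).

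Highly expressed genes changed little in fold but much in reads. Ctsl, the lysosomal protease cathepsin L, read 4265, 4073 and 4258 CPM in vehicle and 6562, 6832 and 6143 with desmosterol (0.63 ± 0.05, adjusted p = 2.51e-14). Cd36, a scavenger receptor and fatty acid carrier, read 2631, 2399 and 2527 in vehicle and 3197, 2977 and 2986 with desmosterol (0.28 ± 0.04), and Vat1, a vesicle membrane protein, rose by 0.28 ± 0.05. Among abundant genes that fell, Csf1r, the receptor for the growth factor that maintains macrophages, read 1270.2, 1297 and 1280.0 CPM in vehicle and 1006, 1115 and 985 with desmosterol (a fall of 0.31 ± 0.05). Cybb, the catalytic subunit of the phagocyte oxidase, fell by 0.29 ± 0.05, and Tnfrsf1b, the second receptor for tumour necrosis factor, by 0.24 ± 0.04. The groups were separate for these 6 genes, as the naming rule required. The cathepsin genes Ctsd (0.15, adjusted p = 0.461 without desmosterol replicate 2, 0.0968 without vehicle replicate 1, 0.126 without vehicle replicate 2 and 0.103 without vehicle replicate 3, in a range of 0.00632 to 0.461 over all settings) and Ctsb (0.16, adjusted p = 0.052 without vehicle replicate 2, in a range of 4.67e-05 to 0.0868 over all settings) did not keep their call. Actb, cytoskeletal actin, gave 0.22 and read 3926, 4138 and 3943 CPM in vehicle and 4545, 5260.2 and 4142 with desmosterol, with replicate 2 highest (adjusted p = 0.0767 without desmosterol replicate 2, in a range of 2.73e-05 to 0.0767 over all settings). The falls of H2-D1 (−0.16, adjusted p = 0.0507 without desmosterol replicate 1, 0.0635 without desmosterol replicate 3, 0.0896 without vehicle replicate 2 and 0.0924 without vehicle replicate 3, in a range of 0.00982 to 0.0924 over all settings), Ahnak (−0.19, adjusted p = 0.0558 without desmosterol replicate 2 and 0.0933 without vehicle replicate 3, in a range of 0.00118 to 0.0933 over all settings) and Myo1f (−0.15, adjusted p = 0.0913 without desmosterol replicate 1, 0.102 without desmosterol replicate 3 and 0.0931 without vehicle replicate 3, in a range of 0.0023 to 0.102 over all settings) did not keep their call either.

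Lists of pathways give the breadth of the response. Besides the 4 sterol lists, 39 lists were read by the number of members called and by the median log2 fold change. That median was −0.000387 over all genes tested. Some of the 39 share members with the sterol lists, such as Mertk and Tgm2 among clearance genes, and shared members are counted in each. The counts are read against the 4.93% of all genes that rose and the 4.57% that fell. By share of members called in 1 direction, the most rises were among ER chaperones (11 of 22) and the enzymes that load transfer RNAs (7 of 20). The most falls were among factors of NF-kB, the central switch of inflammatory transcription (8 of 17), and class I genes (5 of 15). The lists were chosen with earlier results known. Of the 705 tested genes on any list 219 were called, among them 52 of the 63 on the sterol lists. A share above that of all genes is thus common among these lists. The cell cycle list had 4.17% called in both directions together, under the 9.5% of all genes. Receptors for scavenging and for microbes split in both directions.

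**Figure D3:**
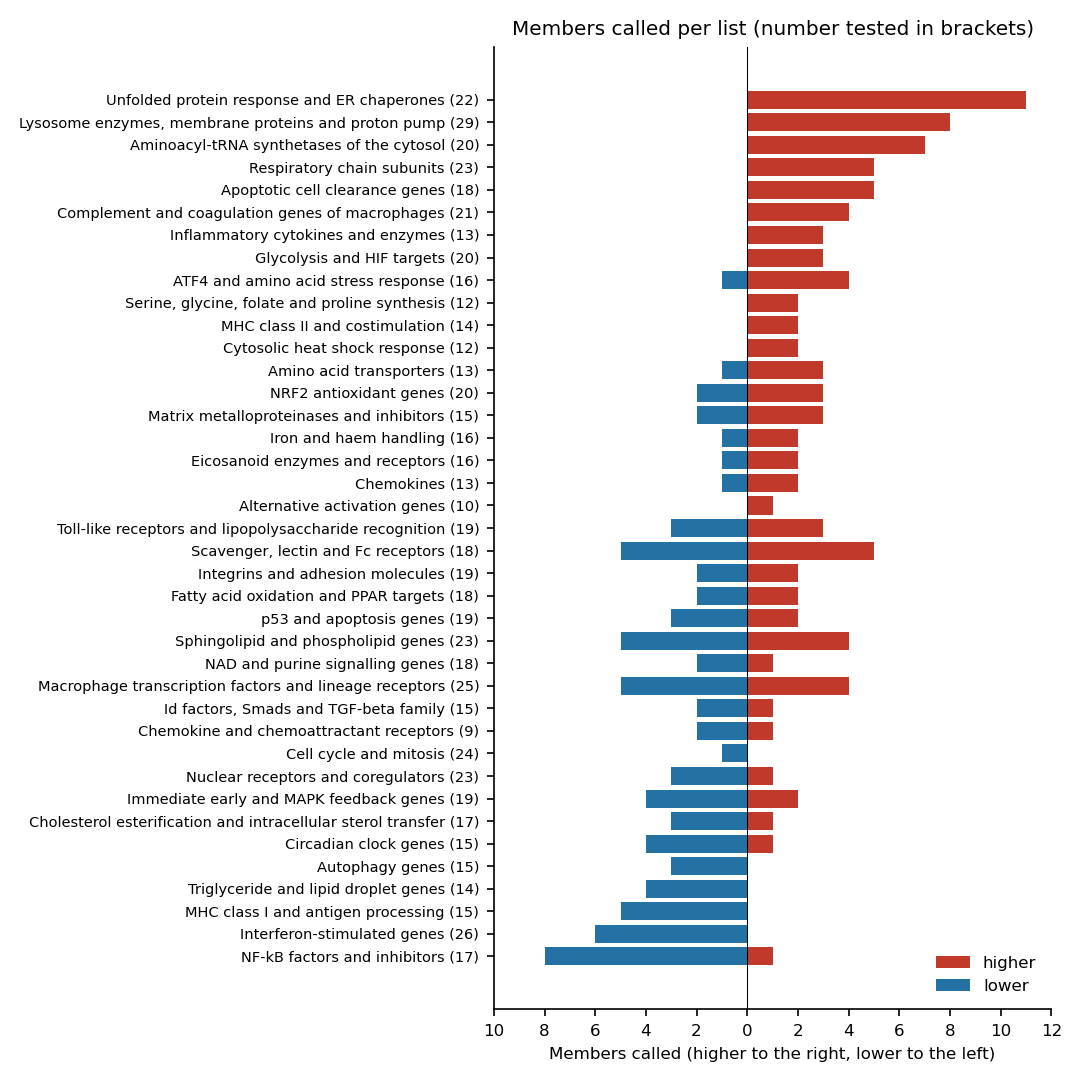
Bars give the members of each of 39 lists called higher (red, right) or lower (blue, left), with the number tested in brackets. The list of ER chaperones has 11 of 22 higher and none lower, and that of NF-kB factors 8 of 17 lower and 1 higher.

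The unfolded protein response adds chaperones when protein folding in the ER falls behind. Of 22 tested members 11 rose and none fell, with a median of 0.16, and 21 of 22 had a positive value. Hspa5, the main chaperone of the ER (BiP), read 784, 701 and 738 CPM in vehicle and 947, 954 and 947 with desmosterol (0.36 ± 0.05, adjusted p = 5.14e-07). Dnajc3, its co-chaperone, read 143, 125 and 141 in vehicle and 185, 155 and 174 with desmosterol (0.33 ± 0.06), and Pdia6, a disulfide isomerase, read 175, 164 and 170.1 in vehicle and 199, 227 and 197 with desmosterol (0.30 ± 0.05). Every treated library was above every vehicle library for all 3. Sdf2l1 (0.42 ± 0.09), Manf (0.32 ± 0.07), Hyou1 (0.28 ± 0.05) and Pdia3 (0.23 ± 0.05), also helpers of ER folding, rose and kept their call. The highest Sdf2l1 library was desmosterol replicate 2, with the treated libraries at 93.8, 129 and 82 CPM. Hsp90b1, Calr, Creld2 and Edem1, likewise of ER folding and quality control, were called with all libraries but lost the call on leaving out at least 1. For Calr (0.17) the adjusted p was then 0.0522 without desmosterol replicate 1, 0.0921 without vehicle replicate 2 and 0.067 without vehicle replicate 3, in a range of 0.00144 to 0.0921 over all settings. For Edem1 it was 0.0863 without desmosterol replicate 1, 0.0946 without desmosterol replicate 3, 0.0618 without vehicle replicate 1, 0.15 without vehicle replicate 2 and 0.0508 without vehicle replicate 3, in a range of 0.0038 to 0.15 over all settings. The sensors did not pass: Ern1 at 0.10 ± 0.07, Eif2ak3 at 0.08 ± 0.08 and Atf6 at 0.03 ± 0.06, nor did Xbp1, an effector, at 0.11 ± 0.07 and the pro-apoptotic Ddit3 at 0.12 ± 0.09. Left-out libraries gave 8 to 12 rising members.

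Genes of this response are known to carry the ER stress element, which reads CCAAT, then 9 bases of any kind, then CCACG. It was searched on both strands in the 250 bases before and 50 after the start of each gene (RefSeq, GRCm38.p6), a search added after the values were seen. Of 8481 genes with a matched promoter 12 held it (0.141%), among them 7 of 414 rising genes (1.69%) and 0 of 393 falling genes. The 7 were Hspa5, Dnajc3, Pdia6, Hsp90b1, Calr, Creld2 and Adcy3, and the other 5 were Alg12, Canx, Hnrnpa3, Pan2 and Syvn1, none of them called. Of the 7 rising genes, 6 were on the chaperone list, so the count repeats that list in part. Adcy3, an adenylyl cyclase, is not a chaperone gene, and its value of 0.26 lost the call with each library left out (adjusted p = 0.0797 without desmosterol replicate 1, 0.0799 without desmosterol replicate 2, 0.0661 without desmosterol replicate 3, 0.0778 without vehicle replicate 1, 0.109 without vehicle replicate 2 and 0.106 without vehicle replicate 3, in a range of 0.0279 to 0.77 over all settings). The 5 stretches shown are from chaperone genes that rose, with the element in capitals (on the opposite strand in Creld2), at chr2:34772009-34772059 (plus), chr14:118937811-118937861 (plus), chr12:17266475-17266525 (plus), chr10:86705622-86705672 (minus) and chr15:88819504-88819554 (plus) in that order.
Hspa5: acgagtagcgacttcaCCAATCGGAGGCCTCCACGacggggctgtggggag
Dnajc3: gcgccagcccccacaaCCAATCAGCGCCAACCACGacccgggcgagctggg
Pdia6: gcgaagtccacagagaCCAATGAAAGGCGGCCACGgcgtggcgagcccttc
Hsp90b1: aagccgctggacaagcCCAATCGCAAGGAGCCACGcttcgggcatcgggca
Creld2: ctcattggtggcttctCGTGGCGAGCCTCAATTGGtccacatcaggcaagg
The Creld2 stretch is also the one found upstream of Alg12, which starts on the opposite strand, so these 2 of the 12 promoters share 1 element. Creld2 was called at 0.26 and Alg12 was not (0.27 ± 0.11, adjusted p = 0.138). Creld2 lost its call at adjusted p = 0.226 without desmosterol replicate 2, 0.0542 without desmosterol replicate 3, 0.166 without vehicle replicate 1 and 0.141 without vehicle replicate 3, in a range of 0.033 to 0.249 over all settings, and Hsp90b1 at 0.0741 without vehicle replicate 2, in a range of 8.27e-06 to 0.0741 over all settings.

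Amino acid genes rose in smaller number. ATF4 is the factor that raises amino acid synthesis and uptake under stress, and its own gene gave 0.24 and lost its call at adjusted p = 0.0548 without desmosterol replicate 1, in a range of 0.000924 to 0.0548 over all settings. Asns, asparagine synthetase, read 4.15, 4.44 and 3.88 CPM in vehicle and 5.7, 10.3 and 7.99 with desmosterol (0.96 ± 0.18, adjusted p = 0.000184), with replicate 2 highest. Mthfd2, of mitochondrial folate metabolism, read 12, 14.1 and 12.7 in vehicle and 28.6, 33.7 and 29.9 with desmosterol (1.24 ± 0.11, adjusted p = 6.14e-12). Both genes were separate between groups, and Mthfd2 more than doubled. Of 16 tested ATF4 genes 4 rose and 1, the factor gene Cebpb, fell, with a median of 0.12. Only Asns kept its call among the 4 (1 rose without desmosterol replicate 1 and 2 without desmosterol replicate 2, in thinned libraries or in a fit of the 6 libraries alone), while Chac1 (0.32 ± 0.47, adjusted p = 0.762), a sensitive marker of this path, did not pass. The amino acid carriers Slc7a1 (0.59 ± 0.10), Slc7a7 (0.38 ± 0.09) and Slc3a2 (0.19 ± 0.05) rose and kept their call. In their list 3 of 13 rose and 1, Slc1a5, fell, with a median of 0.12, and that fall was lost without desmosterol replicate 1 or vehicle replicate 1 and in thinned libraries.

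Of 20 cytosolic aminoacyl-tRNA synthetases 7 rose and none fell, with a median of 0.19. Yars, for tyrosine, read 21.9, 20.0 and 20.9 CPM in vehicle and 28.8, 30.0 and 25.7 with desmosterol (0.44 ± 0.10), and Aars, for alanine, read 103, 106 and 103 in vehicle and 121, 146 and 119.7 with desmosterol (0.31 ± 0.07). These 2 kept their call, and their groups were separate. The count was 2 in libraries thinned to the shallowest and fell to 3 without vehicle replicate 2 and to 4 without desmosterol replicate 2 or vehicle replicate 3. The sequence TGATGNAA, a composite site of C/EBP and ATF factors, was found on either strand in 2.05% of the 8481 promoters, in 17 of 414 rising genes (4.11%) and in 8 of 393 falling genes (2.04%). It is shown in capitals for Aars (chr8:111033714-111033753, plus), Asns (chr6:7693209-7693248, minus) and Yars (chr4:129189890-129189929, plus), the members named here that kept their call.
Aars: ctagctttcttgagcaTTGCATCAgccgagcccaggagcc
Asns: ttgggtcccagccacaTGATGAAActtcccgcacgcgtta
Yars: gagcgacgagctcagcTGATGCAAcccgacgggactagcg
In Aars the match is on the opposite strand. The E-box CACGTG was in 10.5% of all promoters, 12.1% of rising and 9.67% of falling genes, and the antioxidant element TGACNNNGC in 15.2%, 15.2% and 12.5%. The sterol element TCACNCCAC was in 0.99%, 1.45% and 1.02%. The LXR element (DR4), searched as a pair of GGTCA with 5 bases of any kind between, was in 4 promoters in all, of which 1 was of a rising gene and 0 of falling genes.

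Genes of NF-kB factors and their inhibitors fell more often than they rose. Of 17 tested members 8 fell and 1 rose, with a median of −0.24, and 2 of 17 had a positive value. Nfkbie, an inhibitor that NF-kB itself induces, read 16.7, 21.4 and 17.9 CPM in vehicle and 8.79, 10.9 and 10.1 with desmosterol (a fall of 0.91 ± 0.14, adjusted p = 1.07e-05). Tnip3, a further inhibitor, read 11.2, 12.3 and 12.7 in vehicle and 7.15, 6.66 and 6.27 with desmosterol (a fall of 0.85 ± 0.16), and Rela, the main activating subunit, read 115, 117 and 121 in vehicle and 91.1, 94.3 and 94.9 with desmosterol (a fall of 0.33 ± 0.06). None of these groups overlapped. Relb fell by 0.45 ± 0.10, Nfkb2 by 0.42 ± 0.07, Nfkbia by 0.33 ± 0.08 and Tnip1 by 0.23 ± 0.05. The members that fell thus include subunits (Rela, Relb, Nfkb2) and inhibitors (Nfkbia, Nfkbie, Tnip1, Tnip3). Tnfaip3, the ubiquitin-editing inhibitor A20, went the other way, from 88.4, 84.3 and 89.1 CPM in vehicle to 124, 123 and 127 with desmosterol (0.52 ± 0.06, adjusted p = 4.01e-09). The eighth that fell was Icam1, an adhesion molecule that NF-kB induces (−0.39), which lost its call at adjusted p = 0.0707 without desmosterol replicate 1 and 0.0796 without vehicle replicate 2, in a range of 0.000447 to 0.0796 over all settings.

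Inflammatory cytokine and chemokine lists each had 23.1% of members called, against 9.5% of all genes. On any list, sterol lists included, 219 of 705 tested genes were called, so this share alone does not set them apart. Of 13 tested inflammatory genes 3 rose (Il1a, Il18bp and Spp1, osteopontin, at 0.35 ± 0.05) and none fell, with a median of 0.08. Tnf, at −0.41 ± 0.17 (adjusted p = 0.133), and Ptgs2, at 0.22 ± 0.19 (adjusted p = 0.577), did not pass. Chemokines had 2 of 13 higher, Ccl9 (0.56 ± 0.08) and Ccl6 (0.37 ± 0.07), and 1 lower, Cxcl16, which fell by 0.35 ± 0.06.

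Microbe receptors split. Tlr2, the receptor for bacterial lipoproteins, read 42, 42.7 and 43 CPM in vehicle and 29.7, 21.4 and 28.4 with desmosterol, a fall of 0.69 ± 0.12 (adjusted p = 3.67e-05). Tlr1, its partner, read 30.0, 31.2 and 34.9 in vehicle and 43.6, 43 and 40.6 with desmosterol (0.40 ± 0.10), and Tlr4, the receptor for lipopolysaccharide, read 95.2, 88.3 and 89.1 in vehicle and 110.4, 106 and 117 with desmosterol (0.29 ± 0.06). So Tlr2 was lower in every treated library, with replicate 2 lowest, while Tlr1 and Tlr4 were higher in every one. Ticam2, an adaptor of Tlr4, fell by 0.36 ± 0.07. In all 3 of 19 tested members rose and 3 fell, with a median of −0.07. Cd14, the co-receptor of Tlr4, was the third that fell (−0.27), and it lost its call at adjusted p = 0.0611 without vehicle replicate 1 and 0.0687 without vehicle replicate 3, in a range of 0.00777 to 0.165 over all settings.

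**Figure D4:**
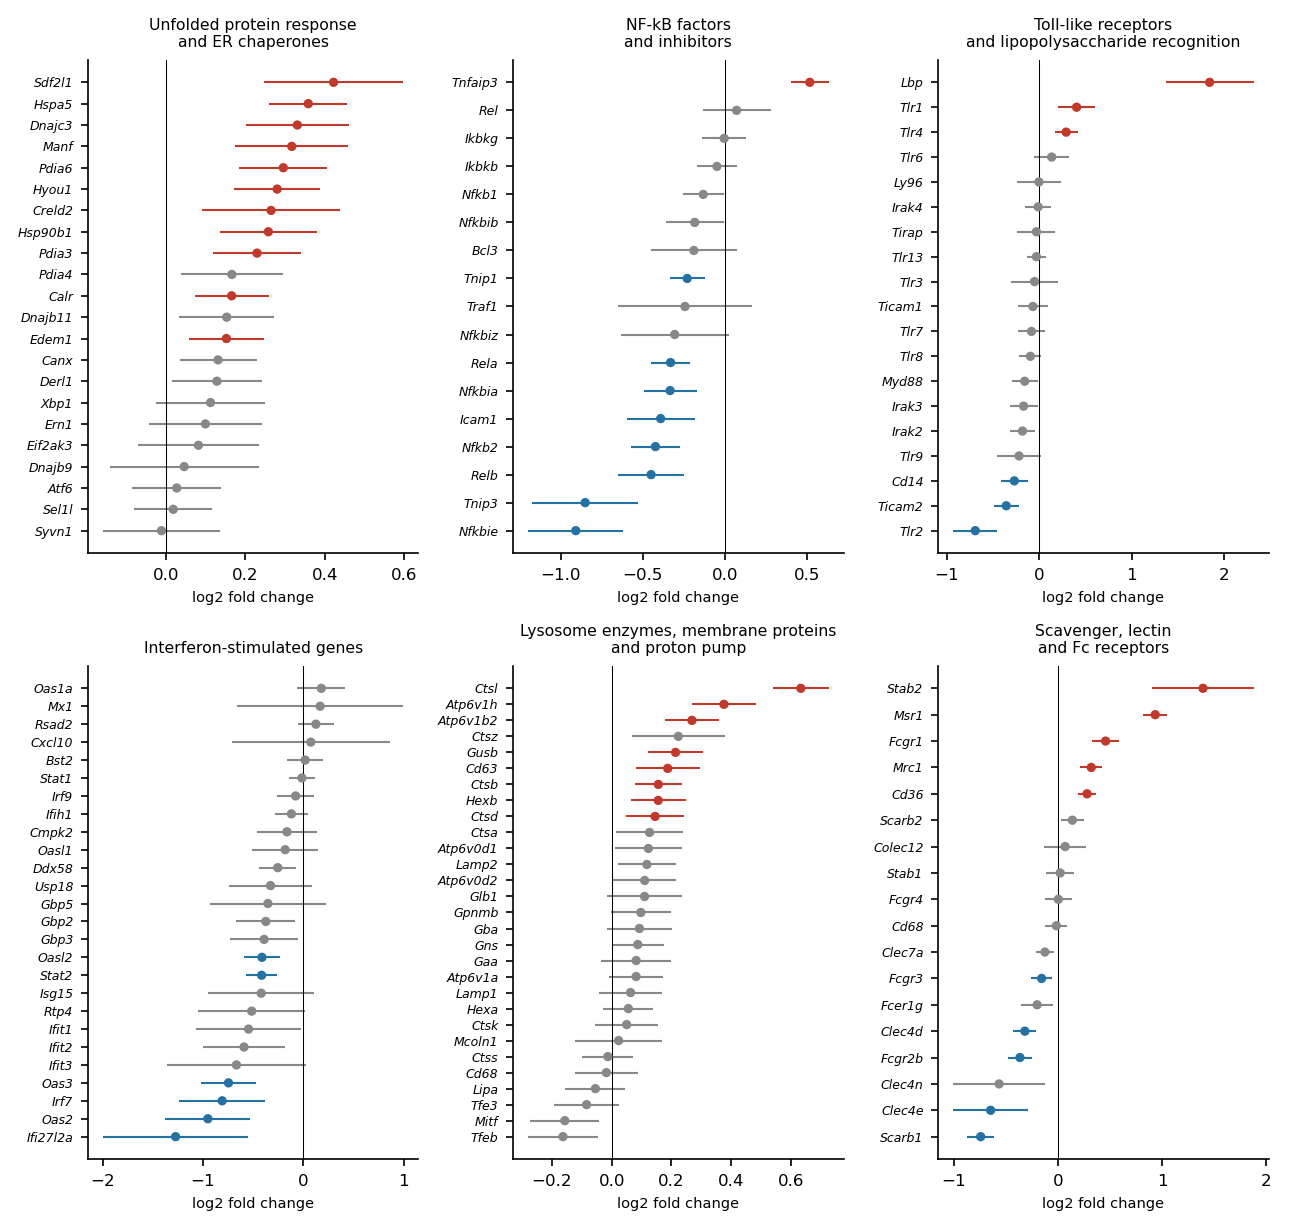
log2 fold changes with 95% intervals for all tested members of 6 lists, red where called higher, blue where called lower and grey where not called. The axes differ between panels. ER chaperones lie almost all to the right of 0, 15 of 17 NF-kB genes to the left, and scavenger receptors on both sides.

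Interferon-stimulated genes had 6 of 26 lower and 0 higher, with a median of −0.36, but 2 lower without vehicle replicate 2 and 3 in thinned libraries. In vehicle replicate 2 Irf7, the factor that amplifies interferon, read highest, the vehicle libraries being at 12.5, 31.7 and 11.6 CPM and the treated ones at 8.4, 11.6 and 12.8. The groups overlapped, and the call (−0.81) was lost at adjusted p = 0.0632 without desmosterol replicate 1 and 0.762 without vehicle replicate 2, in a range of 7.7e-08 to 0.762 over all settings. Oas3, a synthetase that senses viral RNA, read 29.8, 48.5 and 31.6 in vehicle and 19.4, 25.9 and 20.6 with desmosterol (a fall of 0.75 ± 0.13, adjusted p = 9.85e-05). Stat2, the interferon signal carrier, read 48.3, 50.6 and 47.3 in vehicle and 34.4, 36.5 and 39 with desmosterol (a fall of 0.42 ± 0.08). These 2 kept their call and did not overlap, although vehicle replicate 2 was also the highest library for Oas3. Relatives of the Oas family share sequence, so reads may be split among them. Isg15 (−0.42 ± 0.26) and Ifit3 (−0.67 ± 0.34) did not pass.

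Class I antigen genes had 5 of 15 lower and 0 higher, with a median of −0.16. H2-K1 read 890.1, 908 and 896 CPM in vehicle and 704, 715 and 727 with desmosterol (a fall of 0.33 ± 0.04, adjusted p = 6.76e-07), and H2-Q4 fell by 0.50 ± 0.10. Tapbp, which loads peptides onto class I, fell by 0.23 ± 0.05. The groups were separate for H2-K1, but reads of class I genes may be split among relatives. Without vehicle replicate 2, or in thinned libraries, the count was 3. Class II and costimulation genes had 2 of 14 higher and 0 lower (1 higher without desmosterol replicate 2 or in thinned libraries), of which Cd274, the checkpoint ligand PD-L1, kept its call (0.24 ± 0.05).

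A minority of lysosomal genes rose, by small amounts. Of 29 tested members 8 rose and none fell, with a median of 0.10, and 4 rose without vehicle replicate 2 or in a fit of the 6 libraries alone. Besides Ctsl, Atp6v1h, a proton pump subunit, read 160.0, 148 and 151 CPM in vehicle and 198, 209 and 188 with desmosterol (0.38 ± 0.05). The pump subunit Atp6v1b2 (0.27 ± 0.05) and the glucuronidase Gusb (0.21 ± 0.04) also rose and kept their call. Tfeb, the factor that drives lysosomal genes, did not pass (−0.16 ± 0.06, adjusted p = 0.0683). Of 15 autophagy genes 3 fell and none rose: Ulk1, the kinase that starts autophagy, by 0.49 ± 0.08, Map1lc3a by 0.38 ± 0.09 and the cargo receptor Sqstm1 by 0.27 ± 0.05, all of which kept their call.

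Scavenger, lectin and Fc receptors had 5 of 18 higher and 5 lower, with a median of −0.01. Msr1, the class A scavenger receptor, read 134, 142 and 137 CPM in vehicle and 279, 247 and 262 with desmosterol (0.93 ± 0.06, adjusted p = 1.58e-16). Scarb1, the class B receptor for high-density lipoprotein, read 88.6, 98.5 and 90.5 in vehicle and 52.8, 55.9 and 57.2 with desmosterol (a fall of 0.74 ± 0.06, adjusted p = 5.29e-12). These receptors thus moved apart, with no overlap between groups in either. Fcgr1, the high-affinity activating Fc receptor, rose by 0.46 ± 0.06, and the mannose receptor Mrc1 by 0.32 ± 0.05. Fcgr2b, the inhibitory Fc receptor, fell by 0.37 ± 0.06 and the lectin Clec4d by 0.32 ± 0.05. Clec4e (−0.65, adjusted p = 0.0725 without desmosterol replicate 1 and 0.0633 without vehicle replicate 3, in a range of 9.01e-05 to 0.0725 over all settings) and Fcgr3 (−0.16, adjusted p = 0.0863 without desmosterol replicate 1, 0.14 without desmosterol replicate 3, 0.159 without vehicle replicate 2 and 0.0824 without vehicle replicate 3, in a range of 0.00943 to 0.159 over all settings) did not keep their call. The count of falling members was 3 without vehicle replicate 3.

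Genes for clearing apoptotic cells had 5 of 18 higher and 0 lower, with a median of 0.06 (3 higher in thinned libraries). They include Cd36, Stab2 and the known LXR targets Mertk (0.55 ± 0.05), a receptor for dying cells, and Tgm2 (0.52 ± 0.06), transglutaminase. Axl, a relative of Mertk, did not pass (0.05 ± 0.08, adjusted p = 0.772). Among complement and coagulation genes 4 of 21 rose and none fell, with a median of 0.08. Cfp, properdin, which stabilises the alternative pathway, read 228, 236 and 217 CPM in vehicle and 429, 431 and 406 with desmosterol (0.89 ± 0.05, adjusted p = 9.48e-18). Plau, the urokinase that activates plasminogen, read 63, 58.1 and 60.4 in vehicle and 98.4, 127 and 104 with desmosterol (0.87 ± 0.08), with replicate 2 highest, and C1qb rose by 0.32 ± 0.05. All treated libraries of these 3 genes were above all vehicle libraries.

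Transcription factors and receptors of the macrophage lineage changed in both directions, 4 of 25 higher and 5 lower, with a median of −0.08. Cebpb, a factor of inflammatory and stress genes, read 213, 234 and 212 CPM in vehicle and 160.3, 105 and 158 with desmosterol (a fall of 0.65 ± 0.10, adjusted p = 1.08e-05). The groups did not overlap, and desmosterol replicate 2 was the lowest library. Irf8, a lineage factor, rose by 0.40 ± 0.06, and Csf2rb, the shared beta chain of the GM-CSF and interleukin-3 receptors, by 0.29 ± 0.05, though its near copy Csf2rb2 may share its reads. Csf1r fell, as given above. Without vehicle replicate 2, 3 members fell, and 2 did in thinned libraries. Spi1 (PU.1, −0.14 ± 0.05, adjusted p = 0.0793) and Pparg (0.03 ± 0.07, adjusted p = 0.862) did not pass.

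Lipid genes of the further lists, some of them shared with the sterol lists, moved in both directions. Of 14 tested genes of triglycerides and lipid droplets 4 fell and none rose, with a median of 0.00. Pnpla2, the lipase that starts triglyceride breakdown, read 253, 273 and 278 CPM in vehicle and 201, 224 and 188 with desmosterol (a fall of 0.39 ± 0.06, adjusted p = 1.14e-05), and Lipe, hormone-sensitive lipase, fell by 0.41 ± 0.10. Both kept their call, while the droplet coat gene Plin2 did not pass (−0.16 ± 0.06, adjusted p = 0.076). Without vehicle replicate 3, or in a fit of the 6 libraries alone, the count was 2. Of 23 sphingolipid and phospholipid genes 4 rose and 5 fell, with a median of −0.04. Besides Pcyt2, Pcyt1a, the matching enzyme for phosphatidylcholine, fell by 0.23 ± 0.05, and the acyltransferase Lpcat2 by 0.54 ± 0.11, while its relative Lpcat1 rose by 0.49 ± 0.08. S1pr1 and S1pr2, receptors for the same lipid, moved apart: S1pr1 rose by 0.61 ± 0.10 and S1pr2 fell by 0.27 ± 0.05. Gramd1b and Gramd1a, which carry sterol from the plasma membrane to the ER, did so too, at 46.8, 49.4 and 52.5 CPM in vehicle and 66.7, 76.4 and 77.7 with desmosterol for Gramd1b (0.57 ± 0.07). Gramd1a read 42.4, 42.4 and 38.7 in vehicle and 28.5, 31.2 and 29.6 with desmosterol (a fall of 0.47 ± 0.08). The members of this pair did not overlap between groups in either case. Ucp2, a mitochondrial carrier and PPAR target, fell by 0.41 ± 0.05 and Hadha, of fatty acid oxidation, rose by 0.20 ± 0.05.

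Adhesion and matrix genes had a few clear rises. Itga6, an integrin that binds laminin, read 119, 122 and 129 CPM in vehicle and 226, 216 and 231 with desmosterol (0.86 ± 0.06, adjusted p = 9.35e-15), and Itga9 rose by 1.08 ± 0.13. Mmp27 read 9.32, 10.7 and 7 in vehicle and 19.3, 22.3 and 21.8 with desmosterol (1.22 ± 0.12), and Mmp8, neutrophil collagenase, read 8.21, 6.31 and 8.02 in vehicle and 13.4, 14.5 and 15.9 with desmosterol (0.97 ± 0.14). The groups were separate in these 4 genes. Mmp8 is also a neutrophil gene, and of the 2 tested neutrophil markers Csf3r had a negative and S100a8 a positive value, as given above. Their part in its value was not tested. Integrin and adhesion genes had 2 of 19 higher and 2 lower, with a median of 0.04. The 2 lower ones became 0 without desmosterol replicate 1 or vehicle replicate 2 and 1 without desmosterol replicate 3 or vehicle replicate 3, and they were 0 in thinned libraries. Metalloproteinase genes had 3 of 15 higher and 2 lower (1 without desmosterol replicate 1 or in thinned libraries), with a median of 0.02.

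Survival and growth signals changed gene by gene. Bcl2l1, which encodes the anti-apoptotic Bcl-xL, read 72.8, 79.3 and 75 CPM in vehicle and 134, 121 and 139.7 with desmosterol (0.79 ± 0.06, adjusted p = 5.74e-13). Bbc3, the pro-apoptotic PUMA, fell by 0.52 ± 0.10, and Casp4, the inflammatory caspase-11, by 0.70 ± 0.14. Of 19 genes of p53 and apoptosis 2 rose and 3 fell, with a median of −0.03, and 1 rose without desmosterol replicate 2, vehicle replicate 2 or vehicle replicate 3, in thinned libraries or in a fit of the 6 alone. Dusp6, a phosphatase that turns off ERK and is induced by it, rose by 0.79 ± 0.11 and Myc by 0.65 ± 0.13. Junb read 116, 124 and 118 in vehicle and 95, 73.3 and 77 with desmosterol (a fall of 0.55 ± 0.08), with the treated libraries below all vehicle libraries, and Jund fell by 0.37 ± 0.07. Immediate early genes had 2 of 19 higher and 4 lower, with a median of −0.07. Id2 rose by 0.50 ± 0.07.

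Among stress and metabolic lists, 25% of members were called for NRF2, 15% for glycolysis and hypoxia, 21.7% for the respiratory chain and 33.3% for the clock. The share was 9.5% over all genes, but 219 of the 705 tested genes on any list, sterol lists included, were called. These shares alone therefore set none of these lists apart. These counts depended on the setting. Hmox1, haem oxygenase, read 411, 415 and 394 CPM in vehicle and 544, 529 and 518 with desmosterol (0.38 ± 0.05, adjusted p = 8.71e-08), and of 20 NRF2 genes 3 rose and 2 fell, with a median of −0.06, and 1 fell without desmosterol replicate 1 or vehicle replicate 2 and in 6 of the 8 settings that kept all replicates. In thinned libraries 1 rose. Tkt, of the pentose phosphate path, fell by 0.35 ± 0.05. Vegfa, an angiogenic factor, rose by 0.39 ± 0.05, 1 of 3 genes of 20 that rose among glycolysis and hypoxia genes (1 without vehicle replicate 2). Respiratory chain subunits had 5 of 23 higher and 0 lower, with a median of 0.09, but 1 without desmosterol replicate 2, 2 without vehicle replicate 2 or in thinned libraries, 3 without vehicle replicate 1 and 1 in a fit of the 6 libraries alone. Clock genes had 1 of 15 higher and 4 lower, with a median of −0.10. Of these only Per2, which rose by 0.65 ± 0.16, kept its call, and 1 fell without desmosterol replicate 2, and 2 without vehicle replicate 2 or in a fit of the 6 libraries alone. In thinned libraries no clock gene was called in either direction. No cell cycle gene of 24 rose and 1 fell (0 without desmosterol replicate 3), with a median of 0.04, and Mki67, a marker of dividing cells, did not pass (0.10 ± 0.13, adjusted p = 0.724).

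The same 3 vehicle libraries served 4 further ligands, given at 1 uM, so values across ligands share their control and differ in dose, and no comparison between ligands was made. Cd38 gave 2.12 with desmosterol and 3.32 with DMHCA, 3.52 with MePipHCA, 4.31 with GW3965 and 4.26 with T0901317. Plau gave 0.87 with desmosterol and 0.45 with DMHCA, 0.75 with MePipHCA, 0.17 with GW3965 and −0.07 with T0901317, and did not pass with the last 2 ligands (adjusted p = 0.219 and 0.743). Scarb1 gave −0.74 and −0.68 with DMHCA, −1.02 with MePipHCA, 0.20 with GW3965 and 0.20 with T0901317. Pcyt2 and H2-K2 had the same pattern of signs as Scarb1. Pcyt2 gave −0.93 and −0.65 with DMHCA, −1.61 with MePipHCA, 0.29 with GW3965 and 0.32 with T0901317, and H2-K2 −1.09 and −0.76 with DMHCA, −1.14 with MePipHCA, 0.49 with GW3965 and 0.30 with T0901317. For Hspa5 the values were 0.36 and 0.52 with DMHCA, 1.31 with MePipHCA, 0.34 with GW3965 and 0.35 with T0901317, all positive. Apart from those of Plau, all values here passed the test in a fit where 11.7% of genes were called with DMHCA, 35.4% with MePipHCA, 13.2% with GW3965 and 12.8% with T0901317.

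Hepatocytes were given desmosterol at the same dose, or vehicle, for the same 18 to 20 h, with 2 libraries per group. Both hepatocyte groups had the same 24 h pretreatment, with 10% lipid-poor serum, 10 uM mevastatin and 50 uM mevalonate. In a joint fit of both cell types (13700 genes) 61 genes rose and 98 fell in hepatocytes, 0.445% and 0.715% of those tested and 1.16% in all. The response differed between cell types for 197 genes that were more positive in macrophages and 149 that were more negative (1.44% and 1.09%, or 2.53% together). Cell type is tied to the medium and to the dates in the sample titles, so these cannot be told apart. Fewer genes of the first kind were called without hepatocyte vehicle replicate 1 (93) or hepatocyte desmosterol replicate 1 (127), and fewer of the second without hepatocyte desmosterol replicate 2 (87) or hepatocyte vehicle replicate 2 (99). Of the 1097 genes called in macrophages, 895 had a mean of at least 2 CPM in both hepatocyte groups, and 204 of these (22.8%) had a different response. The 449 that rose in macrophages had a median of 0.29 there and 0.02 in hepatocytes, and the 446 that fell had −0.33 and −0.00. The first of each pair of medians chose the genes and is only a description. The macrophage libraries that chose the genes also enter the difference, so the choice raises the 22.8%, which is a description too. In hepatocytes 13 of the 895 were called in the same direction and 15 in the opposite one. The genes used as a check gave smaller values in hepatocytes: 0.21 for Abca1 (2.99 in macrophages) and −0.47 for Insig1 (−1.91). Of 20 cholesterol synthesis enzymes 3 were called lower in hepatocytes and 19 in macrophages.

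Genes named here were chosen after their values were seen, from those expressed in both cell types. Hmox1, which rose in macrophages, read 835 and 868 CPM in hepatocyte vehicle and 453 and 479 with desmosterol, a fall of 0.87 ± 0.07 (difference 1.26 ± 0.09, adjusted p = 1.69e-13). Angptl4, which fell in macrophages, read 193 and 174 with vehicle and 276 and 317 with desmosterol in hepatocytes, a rise of 0.69 ± 0.11 (difference −1.62 ± 0.20, adjusted p = 2.09e-07). In both genes the 2 hepatocyte groups did not overlap, and the direction was opposite to that in macrophages. Ndrg1, a stress-induced gene, read 124 and 115 with vehicle and 86 and 54.9 with desmosterol in hepatocytes (a fall of 0.77 ± 0.12), and Thbs1, the matrix protein thrombospondin-1, read 41.8 and 49.4 with vehicle and 71.9 and 81.6 with desmosterol (a rise of 0.77 ± 0.14). Their differences were 1.15 ± 0.15 (adjusted p = 1.47e-06) and −1.22 ± 0.18 (adjusted p = 9.4e-06). Il18bp read 9.94 and 9.63 with vehicle and 11.8 and 9.8 with desmosterol in hepatocytes (0.13 ± 0.16, adjusted p = 0.805), and Mthfd2 read 93.8 and 96.3 with vehicle and 89.9 and 84.9 with desmosterol (−0.12 ± 0.11, adjusted p = 0.697). Neither passed in hepatocytes, and the differences from macrophages were 1.73 ± 0.21 (adjusted p = 9.2e-08) and 1.37 ± 0.16 (adjusted p = 3.17e-08). These 6 differences stayed under the threshold with each of the 10 libraries left out.

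**Figure D5:**
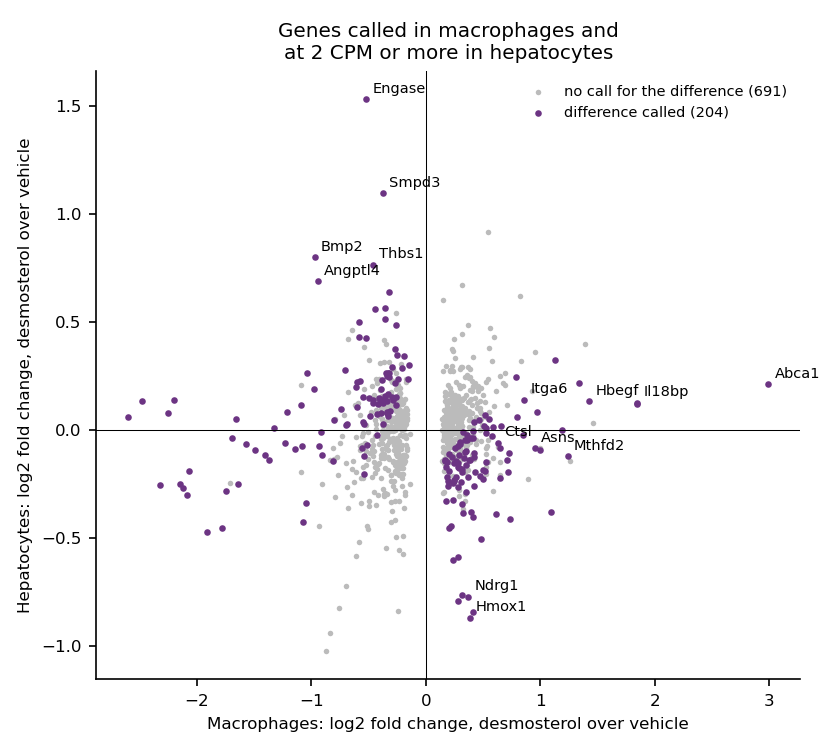
Each point is 1 of 895 genes called in macrophages and at 2 CPM or more in both hepatocyte groups, by its log2 fold change with desmosterol in macrophages (x) and in hepatocytes (y). Purple marks the 204 with a different response, a number that choosing genes called in macrophages raises. The gap around 0 on the x axis comes from choosing genes called in macrophages, and most points lie near 0 on the y axis.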

How the data were processed

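Polyadenylated RNA of 18 macrophage and 12 hepatocyte samples was sequenced as strand-marked libraries, per the labels' protocols. The deposited tables hold raw counts over exons per gene, made by the authors with analyzeRepeats.pl on mm10, per the file headers. STAR and HOMER are named in the submitters' processing notes, with versions not given in the sources used here, and no strand option is stated. Deposited RPKM tables, which the authors made with the same tool per the file headers, were used only as a check: they matched counts per length and total to within 0.0243% for genes over 500 counts. Every column used maps to a labelled sample.

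Counts were fitted with edgeR 4.0.16 (R 4.3.3, limma 3.58.1): TMM scaling, its filter on low counts, 1 mean for each of 6 groups over 18 macrophage libraries and the quasi-likelihood test, with Benjamini-Hochberg adjustment over 11544 genes at 0.05. Errors are standard errors (SE) on the log2 scale, taken as the absolute log2 fold change over the square root of the F statistic. Groups held n = 3 libraries in macrophages and 2 in hepatocytes, and the spread was estimated over all libraries of each fit. The hepatocyte comparison came from 1 joint fit of 30 libraries. The code was run on simulated data, and with its fixed seed false calls made up more than the nominal share. That run does not vouch for the error rate of the calls given here. Alternatives were other scalings, filters, thinned libraries, DESeq2 1.42.0, a replicate block and each library left out. Tables and plots used pandas 2.3.3 and matplotlib 3.10.9.

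Named genes were the 15 largest called changes per direction with non-overlapping groups and at least 2 CPM in the higher group, outside the 4 sterol lists and clone names. To these came the 6 most abundant called genes per direction, also with non-overlapping groups and outside the 4 sterol lists and clone names. Up to 4 called members per list and 6 genes per direction from the cell type difference were added. Members and lists were chosen with earlier results of these data known. The count of genes that keep their call, the ER stress element, the limit of 500 bases between deposited and RefSeq gene starts (8481 of 11544 genes, 73.5%, matched), the hepatocyte minimum of 2 CPM, and any gene named outside these rules, such as not-called list members, were chosen after values were seen. At least 1 gene that the rules name is not reported here.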

Additional observations from a re-analysis of the deposited data

Results flagged for a closer look

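A set of 12 genes was singled out because the response to desmosterol differed between macrophages and hepatocytes in the joint fit of edgeR's quasi-likelihood test, with the largest differences in each direction among macrophage genes. Values are log2 responses in macrophages minus those in hepatocytes, and counts are reads per hepatocyte library. Where a hepatocyte group holds almost no reads the fitted size depends on the prior count and is no bound.

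Cd38 had 2.87 (adjusted p = 1.75e-05), with 28 and 13 reads in hepatocyte vehicle and 12 and 22 with desmosterol. Engase, which cleaves sugar chains from glycoproteins, had −2.05 (adjusted p = 5.72e-05), with 35 and 19 reads in vehicle and 89 and 130 with desmosterol. These 2 of the 12 stayed under the threshold in every alternative run, with adjusted p up to 0.0118 for Cd38 and 0.00546 for Engase. Bmp2 had −1.77, with 22 and 21 reads in vehicle and 56 and 49 with desmosterol, and gave −1.29 (adjusted p = 0.0992) without hepatocyte vehicle replicate 1, in a range of 0.000151 to 0.0992.

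The other 9 rest on few hepatocyte reads. P2ry13 had 6.72 from 6 and 4 reads in vehicle and 0 and 0 with desmosterol, and its adjusted p reached 0.0644 without hepatocyte desmosterol replicate 2, in a range over alternatives from 0.000527. Il7r, the interleukin-7 receptor, had 5.92 from 14 and 0 reads in vehicle and 0 and 0 with desmosterol, and 0.20 (adjusted p = 1, in a range from 2.06e-05) without hepatocyte vehicle replicate 1. Bcl2a1b, whose reads may be shared with near-identical copies, had 5.36 from 5 and 4 against 0 and 0 reads, and lost the call without any 1 of the 4 hepatocyte libraries (adjusted p 0.0937 to 0.197, in a range from 0.00366). Cd53, a leukocyte tetraspanin, had 4.57 from 21 and 0 against 0 and 1 reads. Myo1f, a leukocyte myosin, had 3.34 from 19 and 0 against 0 and 2 reads. Both changed sign without hepatocyte vehicle replicate 1, which held nearly all of their reads (adjusted p = 0.909 for Cd53 and 0.805 for Myo1f). Cd53 also lost the call without either hepatocyte desmosterol library, at 0.0627 and 0.0614, and Myo1f with any 1 of the 10 libraries left out other than hepatocyte vehicle replicate 2, with the replicate block (0.0571) and in a fit of the 10 libraries alone (0.0797). The lowest adjusted p over alternatives was 3.6e-06 for Cd53 and 0.00104 for Myo1f.

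Of these 9, 4 differed the other way. Cbfa2t3 had −4.69 from 0 and 1 reads in vehicle and 16 and 12 with desmosterol, with adjusted p = 0.156 without hepatocyte vehicle replicate 1, in a range from 0.000525. Adcy3 had −3.46 from 0 and 1 against 9 and 14 reads, with adjusted p = 0.416 without hepatocyte vehicle replicate 1 and 0.069 without hepatocyte desmosterol replicate 2, in a range from 0.00859. Siglec1, a macrophage lectin, had −3.32 from 0 and 3 against 18 and 20 reads, with adjusted p = 0.381 without hepatocyte vehicle replicate 1, in a range from 1.55e-05. Adra1a, an adrenergic receptor, had −2.26 from 5 and 0 against 13 and 15 reads, and its adjusted p passed 0.05 on leaving out macrophage vehicle replicate 2, either hepatocyte desmosterol library or hepatocyte vehicle replicate 2, at 0.0514 to 0.22, in a range from 0.017.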

How the results depend on the processing

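Thinning all libraries to the shallowest of the 18 macrophage libraries (3862655 counts) gave 348 genes higher and 297 lower, the same directions with fewer calls. Leaving out 1 library gave 353 to 564 higher and 312 to 478 lower, with the lowest of each without vehicle replicate 2 (652 of its 665 calls shared with all libraries). The difference between cell types held 93 to 171 more positive genes (93 without hepatocyte vehicle replicate 1, 127 without hepatocyte desmosterol replicate 1) and 87 to 142 more negative ones (87 without hepatocyte desmosterol replicate 2, 99 without hepatocyte vehicle replicate 2). Differences that changed sign were those of Cd53, −1.71 without hepatocyte vehicle replicate 1 in a range up to 6.41, and of Myo1f, −2.80 without the same library in a range up to 5.97. The cause of these shifts, beyond fewer samples or reads, was not tested.

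Other settings kept the counts within 1.5 times: 591 and 512 with RLE factors, 627 and 476 with upper-quartile factors, 551 and 523 without a filter, 570 and 515 at 1 CPM, 398 and 377 from the 6 libraries only, and 529 and 404 with DESeq2. No gene called both with the main settings and under an alternative changed direction between them. Genes called under either alone were not checked. The replicate block gave 590 and 554, and 200 and 147 for the cell types. Deviations of same-numbered libraries correlated at 0.142, 0.088 and −0.046, and those of differently numbered ones at −0.15 to 0.076. With so few libraries these values cannot tell whether the numbers mark a pairing, and no label says so.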
